A study of Homo sapiens with 6 samples.

Results

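Hypoxia and HIF genes outside glycolysis were examined in prostate cancer cells with and without silencing of MUC1. They are 35 genes, chosen by symbol for their place in the pathway (HIF subunits, the enzymes that control them, and HIF targets with no step in glycolysis), of 28008 genes in the count table. The choice was made with earlier results of these data known. Of the 35, 32 had enough counts to be tested.

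The cells were DU-145-DR/tet-MUC1shRNA, which descend from DU-145, a human prostate cancer line, by selection for growth in docetaxel (DTX). They carry 1 doxycycline-inducible (DOX-inducible) hairpin against MUC1 in a vector with puromycin selection. The DOX-negative group was 3 cultures given DMSO, the vehicle, and the DOX-positive group was 3 cultures given 500 ng/ml DOX for 7 days. DTX resistance was shared by both groups, and the hairpin, which the treatment labels name for DOX-positive cells only, was taken from the titles and the study to be present in both. Control-hairpin cells given DOX were not analysed here, so silencing of MUC1 and exposure to DOX cannot be told apart. With only 1 hairpin, its effects on other genes cannot be told apart from silencing of MUC1 either. The oxygen level of the cultures is not given in the sources used here. The cultures are described as triplicates, so p-values measure the spread among these 6 libraries of 1 line.

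HIF is a transcription factor made of an oxygen-sensitive alpha subunit (HIF1A or EPAS1) and a constant partner, ARNT. In cells with oxygen, the EGLN enzymes hydroxylate prolines of the alpha subunit, VHL then binds it and directs it to the proteasome, and HIF1AN hydroxylates an asparagine that blocks its coactivators. Most control of HIF is therefore on the protein, which RNA-Seq does not measure. When oxygen falls, the stabilised pair binds DNA at short motifs with the core ACGTG or GCGTG and turns on genes for vessel growth, pH control, mitophagy, collagen processing, histone demethylation and its own feedback, EGLN3 among them.

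Libraries held between 15092691 and 23243713 counts, so a count of 3, taken as the detection floor, was between 0.131 and 0.202 CPM (a gene's counts scaled to the library total, with TMM factors). MUC1 had 387, 484 and 396 counts without DOX and 75, 74 and 66 with DOX, a log2 fold change of -2.52 (SE 0.146, adjusted p = 4.47e-11 by edgeR's quasi-likelihood test with Benjamini-Hochberg adjustment over 14292 genes, used throughout). The line's epithelial markers KRT8, KRT18, EPCAM and CDH1 were present and all 4 rose, from a summed 587 to 651 CPM in the DOX-negative libraries to 1077 to 1165 CPM in the DOX-positive libraries, and their part in the results on hypoxia genes was not tested. The lymphocyte markers CD3E and MS4A1 had 0 counts in all 6 libraries. Summed fibroblast and endothelial markers stayed between 4.45 and 5.90 CPM, most of it COL1A1. Of 5 leukocyte markers, CD68, which other cells also express in lysosomes, was tested and rose by 0.75 on the log2 scale, and its part was not tested either. In bulk samples, fewer cells of a type and less RNA per cell cannot be told apart.

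Of the 32 hypoxia and HIF genes tested, 10 rose with DOX, 4 fell and 18 did not pass the test. LOX, which crosslinks collagen and elastin, rose 4.49-fold, BHLHE40, a transcriptional repressor, 2.58-fold, and the vasodilator peptide ADM 2.06-fold, while EGLN3, CA12, PPP1R3C and BNIP3 fell. HIF1A itself was at the same mean level in both groups, 1398 ± 76.0 CPM and 1396 ± 19.3 CPM (SD, n = 3). The 10 that rose are 31.3% of those tested, beside 13.0% of all genes tested, and the 4 that fell are 12.5%, beside 13.7% of all genes, so 43.8% were called in either direction against a background of 26.7%. Their median log2 fold change was 0.16, against a median of -0.0034 over all genes, and 23 of the 32 had a positive value (71.9%, against 49.5% of all genes). The genes were chosen with earlier results of these data known, so these shares are a description and not a test. Most changes were small: 19 of the 32 were under 0.3 on the log2 scale in either direction. The CPM of the groups did not overlap for 20 of the 32 (62.5%, against 39.8% of all genes tested), including 13 of the 14 called, with EPAS1 the exception.

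**Figure D1:**
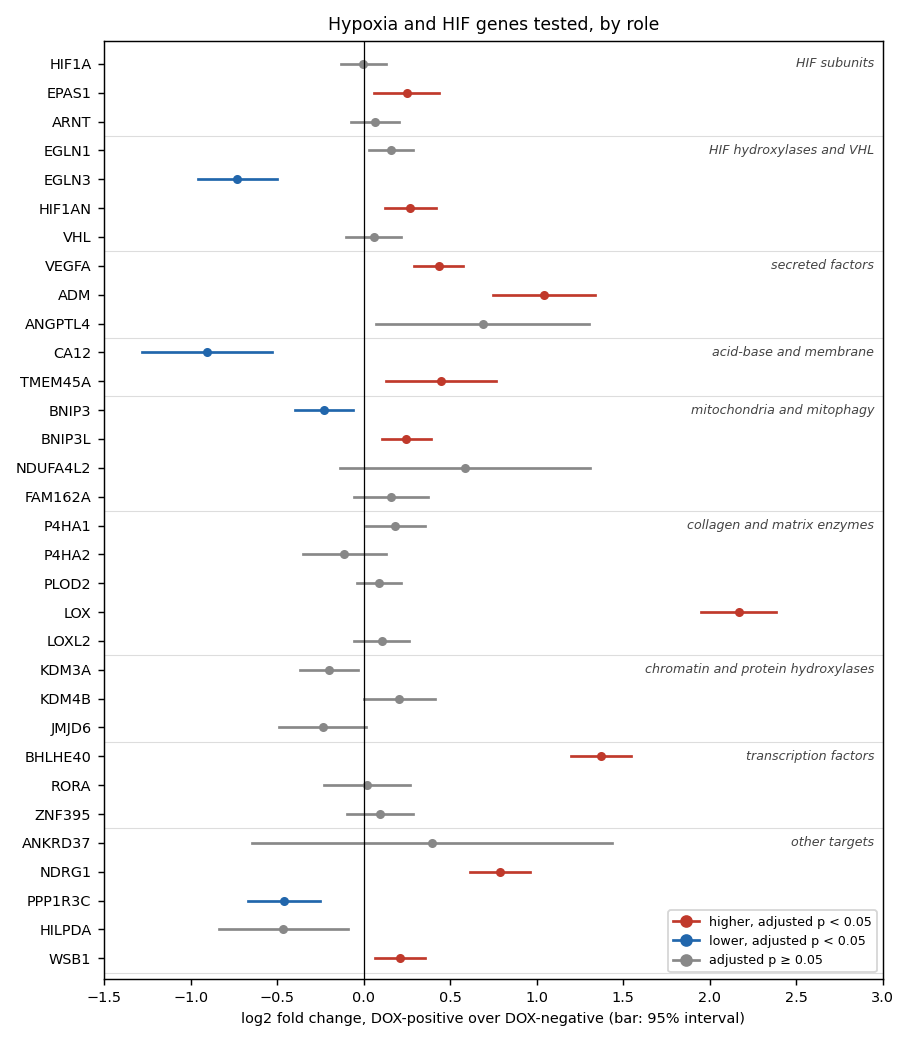
Log2 fold change of the 32 genes tested, DOX-positive over DOX-negative (x axis), with genes grouped by role on the y axis; points are edgeR estimates, bars are 95% intervals, and colour gives the call at an adjusted p under 0.05. LOX (2.17), BHLHE40 (1.37) and ADM (1.04) stand farthest to the right, and CA12 (-0.91) and EGLN3 (-0.73) farthest to the left.

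The calls of the smaller changes, and in the deposited TPM their direction, depended on the scale. With counts scaled to library totals only, 7 genes were called higher and 6 lower in place of 10 and 4. Only 1 of the 32 changed sign there. The whole table moved too under that scaling, with a median of all genes tested shifted by -0.035. Of all genes called there, 39.3% were higher, in place of 48.8%. In the TPM the authors deposited, the median of all genes tested moved by -0.37 (log2(TPM + 1)), and 2 of the hypoxia and HIF genes rose (LOX and BHLHE40) and 2 fell. Short noncoding RNAs took between 34.4% and 64.4% of a library's TPM. On that scale 15 of the 32 changed sign, all 15 of which had their first sign again once that shift was subtracted. Fold changes are from counts unless TPM is named.

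Promoter sequence is shown for the 3 genes with the largest rises and the 3 with the largest falls among those called that have an entry in the RefSeq promoter table (GRCh38.p14), to place what moved beside the HIF core motif. Of the 35 genes, 25 had an entry; VHL, VEGFA, STC1, BNIP3L, NDUFA4L2, LOXL2, JMJD6, ZNF395, NDRG1 and HILPDA did not. Each line gives the 250 bases before the gene's RefSeq start, read 5′ to 3′ on the gene's own strand. Capitals mark ACGTG or GCGTG on either strand (CACGT or CACGC when read on the other), so a CACGTG palindrome counts once on each strand. The windows are chr5:122078260-122078509 (minus strand) for LOX, chr3:4979187-4979436 (plus) for BHLHE40, chr11:10304823-10305072 (plus) for ADM, chr15:63381847-63382096 (minus) for CA12, chr14:33951075-33951324 (minus) for EGLN3 and chr10:91633072-91633321 (minus) for PPP1R3C.
LOX: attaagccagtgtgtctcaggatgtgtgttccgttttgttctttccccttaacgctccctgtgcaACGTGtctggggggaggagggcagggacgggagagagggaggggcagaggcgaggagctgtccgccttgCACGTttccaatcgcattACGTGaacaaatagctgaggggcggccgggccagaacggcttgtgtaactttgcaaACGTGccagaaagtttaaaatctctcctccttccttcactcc
BHLHE40: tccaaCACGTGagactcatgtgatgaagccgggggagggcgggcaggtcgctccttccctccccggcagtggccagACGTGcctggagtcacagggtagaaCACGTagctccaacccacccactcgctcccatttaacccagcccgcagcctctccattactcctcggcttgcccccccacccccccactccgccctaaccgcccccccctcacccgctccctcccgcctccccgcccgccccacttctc
ADM: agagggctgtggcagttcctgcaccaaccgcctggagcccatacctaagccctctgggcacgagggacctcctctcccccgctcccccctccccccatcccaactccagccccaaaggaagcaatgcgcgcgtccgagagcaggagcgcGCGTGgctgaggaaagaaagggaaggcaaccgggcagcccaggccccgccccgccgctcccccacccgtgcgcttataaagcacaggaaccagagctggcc
CA12: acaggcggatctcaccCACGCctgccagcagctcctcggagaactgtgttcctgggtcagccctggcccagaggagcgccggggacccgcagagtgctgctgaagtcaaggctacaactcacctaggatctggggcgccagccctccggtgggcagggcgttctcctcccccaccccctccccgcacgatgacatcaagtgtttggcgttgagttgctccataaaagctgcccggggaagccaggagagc
EGLN3: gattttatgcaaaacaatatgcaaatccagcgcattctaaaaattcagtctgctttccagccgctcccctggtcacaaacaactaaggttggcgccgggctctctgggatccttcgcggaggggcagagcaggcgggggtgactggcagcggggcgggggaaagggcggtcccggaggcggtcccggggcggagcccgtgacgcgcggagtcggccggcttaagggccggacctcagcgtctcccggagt
PPP1R3C: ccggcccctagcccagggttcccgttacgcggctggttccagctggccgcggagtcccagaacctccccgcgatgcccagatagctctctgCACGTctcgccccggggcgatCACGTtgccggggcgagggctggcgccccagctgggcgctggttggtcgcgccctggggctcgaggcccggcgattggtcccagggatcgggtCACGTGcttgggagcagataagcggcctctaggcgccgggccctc

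LOX held 4 ACGTG matches, which began 185, 116, 98 and 42 bases before its start, and BHLHE40 held 4, of which those at 245 and 244 bases form 1 palindrome. ADM held none of ACGTG and 1 GCGTG, 101 bases before its start. Among the genes that fell, PPP1R3C held 4 ACGTG matches, of which those at 45 and 44 bases form 1 palindrome. CA12 held 1 GCGTG and EGLN3 held neither. Over the 25 genes, 14 windows (56.0%) held ACGTG, beside 18.6% of the 27305 windows of the table and 23.3% of the 10483 windows of genes tested here. GCGTG was in 9 of the 25 (36.0%), beside 31.9% and 45.4%. By call, ACGTG was in 3 of 7 windows of genes that rose, 2 of 4 that fell, 7 of 12 that were not called and both windows of genes not tested. A match is a stretch of letters, not a measured binding site, and sequence outside these windows was not searched. The windows lie before the outermost start in the table, which for P4HA2, KDM3A and RORA is inside the RefSeq gene, so 3 of the 25 windows are intragenic.

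The HIF subunits changed little. HIF1A had 25823, 25666 and 29323 counts without DOX and 31531, 26827 and 20992 with DOX, and the CPM of the groups overlapped (log2 fold change -0.0021, 95% interval -0.13 to 0.13, adjusted p = 0.986). That interval covers changes of either sign, and the sign of the value itself turned with DESeq2 or RLE factors. EPAS1, the other oxygen-sensitive subunit, had 2493, 2589 and 2138 counts without DOX and 3237, 3254 and 2007 with DOX. Its level went from 125 ± 16.6 to 149 ± 18.7 CPM, with the lowest DOX-positive library, at 135 CPM, below the highest DOX-negative library, at 137 CPM. The rise of 0.25 (SE 0.0903) passed narrowly (adjusted p = 0.0462) and turned to -0.14 on log2(TPM + 1). It fell to 0.14 without DOX-negative replicate 3 (adjusted p = 0.259) or without DOX-positive replicate 2 (adjusted p = 0.247). DESeq2 (adjusted p = 0.0504), total counts (0.0998) and a minimum of 10 counts in each library (0.0507) also lost the call of EPAS1. ARNT, the partner of both, had 2362, 2266 and 2405 counts without DOX and 2897, 2536 and 1833 with DOX, a log2 fold change of 0.064 (95% interval -0.076 to 0.20, adjusted p = 0.529), with groups that overlapped.

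Among the enzymes that restrain HIF, EGLN3 fell and HIF1AN rose. EGLN3, a prolyl hydroxylase that is itself a textbook HIF target, had 457, 418 and 505 counts without DOX and 330, 298 and 195 with DOX. Its level went from 23.9 ± 2.17 to 14.4 ± 1.23 CPM (log2 fold change -0.73, SE 0.110, adjusted p = 3.54e-05), and every DOX-positive library was below every DOX-negative one. The call was kept in all 15 alternatives tried. HIF1AN, the asparaginyl hydroxylase, had 1525, 1778 and 1596 counts without DOX and 2343, 1869 and 1592 with DOX, or 84.8 ± 5.80 and 102 ± 4.70 CPM. Its rise of 0.27 (SE 0.0721, adjusted p = 0.0077) held in all 12 count-based alternatives and turned to -0.12 in the deposited TPM.

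EGLN1, the main prolyl hydroxylase of most cells, had 3610, 3834 and 3923 counts without DOX and 5242, 3948 and 3326 with DOX. Its CPM groups, 197 ± 1.84 and 219 ± 11.7, did not overlap, yet the difference of 0.16 (95% interval 0.029 to 0.29) missed the threshold at an adjusted p of 0.0639, and passed it by DESeq2 at 0.0472. VHL, the substrate receptor of the ubiquitin ligase that removes HIF, had 1174, 1132 and 1208 counts without DOX and 1371, 1242 and 976 with DOX, with overlapping groups (0.058, 95% interval -0.10 to 0.22, adjusted p = 0.624). EGLN2, the remaining prolyl hydroxylase, was at or near the floor with 0, 4 and 0 counts without DOX and 0, 1 and 1 with DOX, and was not tested. In the GENCODE 29 annotation it shares 30.6% of its exon bases with other genes on the same strand, the read-through gene RAB4B-EGLN2 among them, which had 0 counts in all 6 libraries, as did RAB4B. How the authors' counting treated shared reads is not given in the sources used here, so the level of EGLN2 is uncertain.

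**Figure D2:**
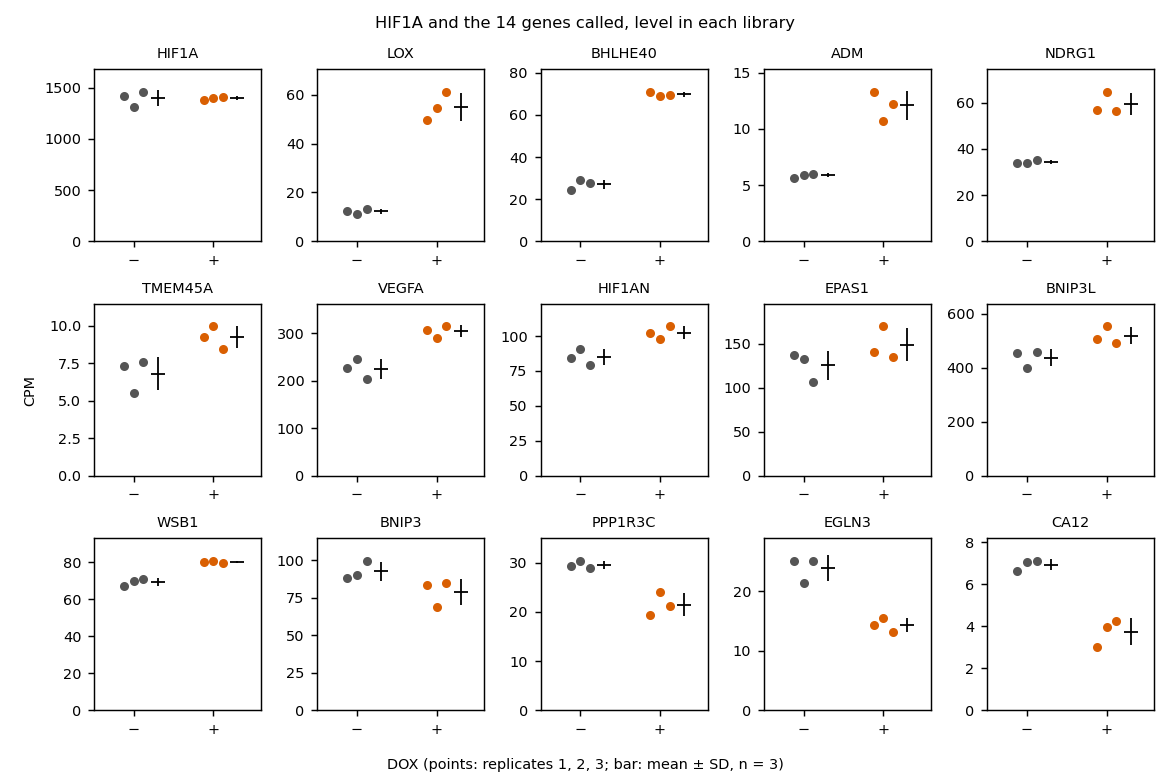
CPM (y axis, from 0, with a separate scale in each panel) of HIF1A and the 14 genes called, in DOX-negative (−) and DOX-positive (+) libraries; each point is 1 library in the order of replicates 1, 2 and 3, and the bar is the mean ± SD (n = 3). The DOX-positive points sit apart from the DOX-negative points for LOX, BHLHE40, ADM, NDRG1 and the other genes called except EPAS1, where they overlap, and they overlap for HIF1A.

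The secreted factors that were tested all had positive values, and 2 of 3 rose. ADM, a vasodilator and angiogenic peptide (chromosome 11, 10305073 to 10307397), had 103, 116 and 121 counts without DOX and 305, 205 and 182 with DOX. Its level went from 5.87 ± 0.182 to 12.1 ± 1.30 CPM, a log2 fold change of 1.04 (SE 0.142, adjusted p = 1.06e-05). VEGFA, the main growth factor for blood vessels (chromosome 6, 43770211 to 43786487), was far more abundant, with 4132, 4784 and 4069 counts without DOX and 7029, 5557 and 4676 with DOX. It went from 225 ± 21.2 to 304 ± 12.3 CPM (0.43, SE 0.0689, adjusted p = 6.73e-05). For both genes every DOX-positive library was above every DOX-negative one in CPM. On log2(TPM + 1), limma called neither, at 0.56 for ADM (adjusted p = 0.146) and 0.042 for VEGFA (adjusted p = 0.915). With TPM rescaled without 5 short noncoding RNAs, limma called both higher. The values there were 0.95 for ADM (adjusted p = 0.00121) and 0.41 for VEGFA (adjusted p = 0.0306). ANGPTL4, a secreted inhibitor of lipoprotein lipase, had 25, 33 and 29 counts without DOX and 65, 30 and 43 with DOX, and its difference of 0.69 (SE 0.297) had an adjusted p of 0.0918, with DOX-positive replicate 2 inside the DOX-negative range. Without that library the value was 0.92 (adjusted p = 0.0219). STC1, a secreted hormone, had 0 counts in 5 libraries and 1 count in DOX-positive replicate 3, and was not tested.

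Of the carbonic anhydrases, which help cells control pH, CA12 fell and CA9 was at or near 0. CA12 (chromosome 15, 63321378 to 63381846) had 120, 138 and 143 counts without DOX and 69, 76 and 63 with DOX, and fell from 6.93 ± 0.279 to 3.74 ± 0.647 CPM (log2 fold change -0.91, SE 0.181, adjusted p = 0.000709). All 3 DOX-positive libraries were below all 3 DOX-negative ones. CA9, often used as a marker of HIF1A activity, had 1 count in DOX-positive replicate 1 and 0 counts in the other 5 libraries, and was not tested. It shares 38.5% of its exon bases with ARHGEF39 on the other strand, and whether the counting used strand is not given, so its level is uncertain. TMEM45A, a transmembrane protein, had 133, 108 and 152 counts without DOX and 213, 191 and 126 with DOX, or 6.80 ± 1.11 and 9.24 ± 0.754 CPM. Its rise of 0.45 (SE 0.154, adjusted p = 0.0356) was not kept in 6 of 12 count-based alternatives, where its adjusted p was 0.168 when DOX-negative replicate 2 was left out and 0.0560 with a replicate block.

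The mitophagy receptors BNIP3 and BNIP3L, which are paralogs and tag mitochondria for removal, moved in opposite directions. BNIP3 had 1603, 1759 and 2007 counts without DOX and 1912, 1325 and 1261 with DOX, a fall from 92.7 ± 6.27 to 79.1 ± 8.59 CPM (-0.23, SE 0.0814, adjusted p = 0.0405). The groups did not overlap, but the fall moved to -0.14 without DOX-positive replicate 2 (adjusted p = 0.181) and lost its call without DOX-negative replicate 3 (adjusted p = 0.179) or with a replicate block (adjusted p = 0.0561). BNIP3L had 8254, 7826 and 9182 counts without DOX and 11662, 10611 and 7341 with DOX, a rise from 437 ± 32.0 to 519 ± 31.7 CPM (0.25, SE 0.0671, adjusted p = 0.00866), which turned to -0.15 in the deposited TPM. The difference between the paralogs was not tested. FAM162A, a mitochondrial protein, had an estimate of 0.16 (adjusted p = 0.286), and NDUFA4L2, a mitochondrial protein known as a HIF target, had an estimate of 0.59 from between 18 and 48 counts per library (adjusted p = 0.228).

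Among the collagen and matrix enzymes, LOX rose and the other 4 did not pass the test. LOX (chromosome 5, 122063195 to 122078259) had 223, 215 and 269 counts without DOX and 1138, 1041 and 910 with DOX. Its level went from 12.2 ± 1.20 to 55.1 ± 5.82 CPM (log2 fold change 2.17, SE 0.104, adjusted p = 3.78e-12), the largest change of the 32 genes, and the lowest DOX-positive library, at 49.6 CPM, was well above the highest DOX-negative library, at 13.4 CPM. Without any 1 library the value stayed between 2.09 and 2.24. Its relative LOXL2 had an estimate of 0.10 (95% interval -0.055 to 0.26, adjusted p = 0.343). The collagen prolyl hydroxylase subunits P4HA1 (0.18, adjusted p = 0.109) and P4HA2 (-0.11, adjusted p = 0.519) and the lysyl hydroxylase PLOD2 (0.088, adjusted p = 0.322), which modify collagen chains inside the cell, were also not called. The 95% interval of P4HA1, 0.011 to 0.35, excluded 0. PLOD2 had between 20949 and 32005 counts per library, and its 95% interval was -0.041 to 0.22. The CPM groups of P4HA1 and of PLOD2 did not overlap.

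None of the 3 dioxygenases of chromatin and protein was called by edgeR with TMM factors, with 2 at an unadjusted p under 0.05, or by DESeq2, with 1. The histone demethylases KDM3A and KDM4B had estimates of opposite sign, -0.20 (adjusted p = 0.0704) and 0.21 (adjusted p = 0.124), and JMJD6 had -0.24 (adjusted p = 0.152). The DOX-positive libraries of KDM3A, at 42.2 to 46.6 CPM, were all below the DOX-negative ones, at 48.2 to 53.7 CPM. With counts scaled to library totals only, edgeR called KDM3A lower (-0.24, adjusted p = 0.0324). JMJD6 overlapped between groups, and its value without DOX-positive replicate 1 was -0.38 (adjusted p = 0.0319).

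Of the transcription factors, BHLHE40 rose. BHLHE40, a basic helix-loop-helix repressor also active in the circadian clock (chromosome 3, 4979437 to 4985323), had 443, 565 and 556 counts without DOX and 1629, 1319 and 1032 with DOX. It went from 27.0 ± 2.33 to 69.8 ± 1.09 CPM (log2 fold change 1.37, SE 0.0835, adjusted p = 9.17e-11), with no overlap, and was called in all 15 alternatives. RORA, a nuclear receptor, had an estimate of 0.017 (95% interval -0.23 to 0.27, adjusted p = 0.935), and ZNF395, a zinc finger factor, 0.094 (adjusted p = 0.487). ZNF395 shares 34.9% of its exon bases on the same strand with FBXO16, so its counts are uncertain.

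The other targets went both ways. NDRG1, a stress-responsive gene used as a hypoxia marker (chromosome 8, 133237175 to 133297252), had 616, 664 and 709 counts without DOX and 1302, 1239 and 840 with DOX. It rose from 34.4 ± 0.775 to 59.3 ± 4.69 CPM (0.79, SE 0.0825, adjusted p = 2.72e-07), with no overlap. In the deposited TPM, with either pseudocount, NDRG1 was not called. After TPM was rescaled without 5 short noncoding RNAs, NDRG1 was called higher again. PPP1R3C, which brings a phosphatase to glycogen and favours its synthesis (chromosome 10, 91628442 to 91633071), had 532, 595 and 580 counts without DOX and 443, 459 and 314 with DOX. It fell from 29.5 ± 0.812 to 21.5 ± 2.36 CPM (-0.46, SE 0.0994, adjusted p = 0.00137), again with no overlap. HILPDA, a lipid droplet protein, had almost the same estimate, -0.46, on fewer counts (between 69 and 122 per library), and with an SE of 0.180 it was not called (adjusted p = 0.0615), although its groups did not overlap. WSB1, part of a ubiquitin ligase, went from 69.5 ± 2.05 to 80.3 ± 0.718 CPM (0.21, SE 0.0696, adjusted p = 0.0303). That call was lost in 5 of 12 count-based alternatives, among them the fit without DOX-negative replicate 1 (adjusted p = 0.136) and the replicate block (adjusted p = 0.0759), and its sign turned in the deposited TPM (-0.18). ANKRD37, an ankyrin repeat protein with between 4 and 15 counts per library, had an estimate of 0.39 with a 95% interval of -0.65 to 1.44. It shares 35.2% of its exon bases with UFSP2 on the other strand, so its counts are uncertain as well.

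The calls differed in stability. Of the 14 genes called, 10 kept their call and direction in all 12 count-based alternatives: LOX, BHLHE40, ADM, NDRG1, VEGFA, HIF1AN and BNIP3L among those that rose, and EGLN3, CA12 and PPP1R3C among those that fell. The remaining 4 kept it in only part of the 12: EPAS1 in 7, TMEM45A in 6, WSB1 in 7 and BNIP3 in 8. LOX, BHLHE40 and EGLN3 kept it in all 15 alternatives, those on deposited TPM included.

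**Figure D3:**
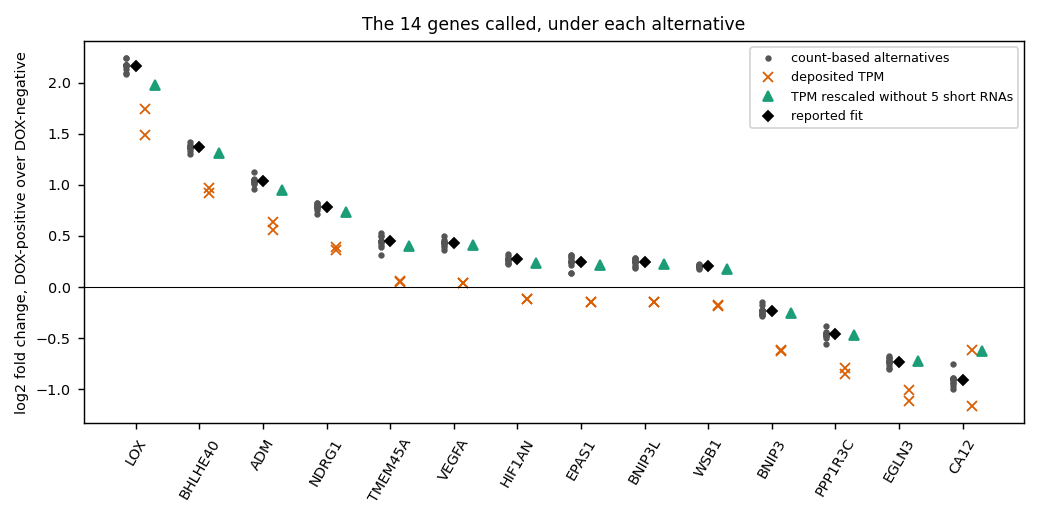
Log2 fold change (y axis) of the 14 genes called (x axis) in the fit reported here (black diamonds), in 12 count-based alternatives (grey points), in the deposited TPM with 2 pseudocounts (orange crosses) and in TPM rescaled without 5 short noncoding RNAs (green triangles). Orange crosses lie below the other marks for most genes. Among genes that rose, they lie below 0 for HIF1AN, EPAS1, BNIP3L and WSB1. They remain above 0 for LOX, BHLHE40, ADM, NDRG1, VEGFA and TMEM45A, only just so for VEGFA and TMEM45A.

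Levels of different genes were set side by side in TPM, which is per length, within the DOX-negative libraries. PLOD2, at 462 ± 132 TPM, and HIF1A, at 439 ± 110 TPM (SD between libraries, n = 3), stood highest. Within libraries PLOD2 was above HIF1A in replicates 1 and 2 (464 against 437 and 593 against 550 TPM). In replicate 3 both were at 330 TPM. BNIP3L followed at 168 ± 39.8 TPM, then BNIP3 at 88.8 ± 23.7, VEGFA at 85.6 ± 33.5 and FAM162A at 78.4 ± 10.5 TPM, with ranges that overlapped. EGLN1 (37.7 ± 11.5 TPM), EPAS1 (34.2 ± 13.3 TPM) and ARNT (33.5 ± 9.42 TPM) also had ranges that overlapped. Within each library EGLN1 was the highest of them. HIF1A RNA was far above that of its partner and of EPAS1. LOX, the gene with the largest change, was 27th of the 32 before DOX, at 2.97 ± 0.620 TPM, and ADM was 25th, at 5.87 ± 1.81 TPM. CA12 (1.46 ± 0.459 TPM), ANGPTL4 (1.23 ± 0.503 TPM) and ANKRD37 (0.963 ± 0.592 TPM) were the last 3. DOX-negative replicate 2, the library with the lowest share of short noncoding RNA, had the highest TPM of the 3 for all 32 genes.

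**Figure D4:**
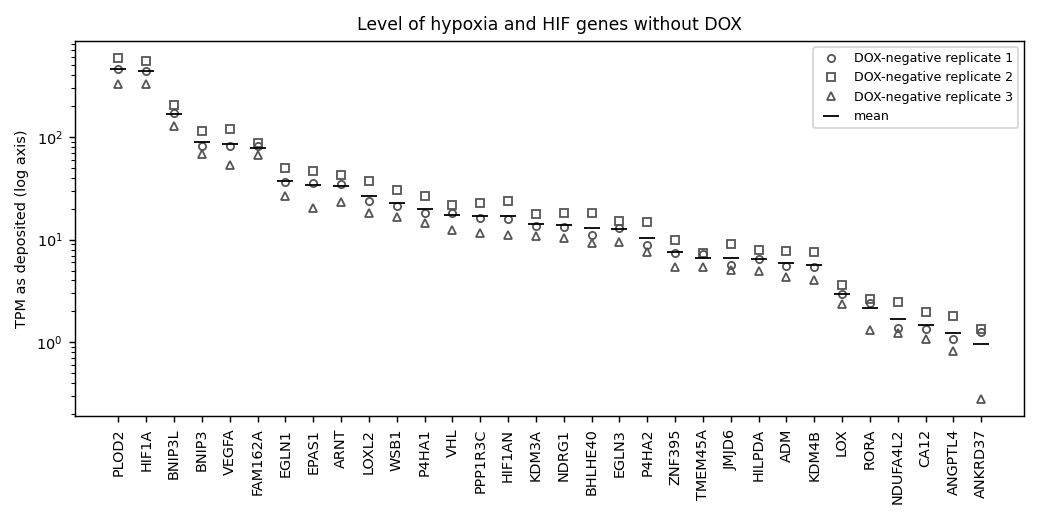
Deposited TPM (y axis, log scale) of the 32 genes tested in the 3 DOX-negative libraries, ordered by their mean (x axis), with 1 symbol for each replicate and a bar for the mean. PLOD2 and HIF1A lead at 462 and 439 TPM, and LOX, which rose most with DOX, stands near the low end at 2.97 TPM.

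The genes around these 35 in the pathway were counted in the same fit, from lists written with earlier results of these data known. Of 24 other HIF machinery genes tested (cofactors, chaperones and the ubiquitin ligase of HIF), 2 rose and 1 fell (12.5%, against the background of 26.7%), with a median of -0.0047. CITED2, which competes with HIF for its coactivators, rose by 0.73 (SE 0.0682, adjusted p = 5.09e-08), OS9 rose by 0.20 (adjusted p = 0.0452), and HSP90AA1, a chaperone of HIF1A, fell by 0.36 (adjusted p = 0.000976).

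Of 38 other hypoxia-induced genes tested, 7 rose and 2 fell (23.7%, against the background of 26.7%), with a median of 0.096. By direction this is 18.4% and 5.26%, against 13.0% and 13.7% of all genes tested. The largest rises were PLAUR, the urokinase receptor (0.55, adjusted p = 2.20e-05), NT5E, which makes adenosine outside the cell (0.51, adjusted p = 9.22e-06), and the adenosine receptor ADORA2B (0.40, adjusted p = 0.0315). HMOX1, which breaks down heme, fell by 0.67 (adjusted p = 0.00424) and VLDLR, a lipoprotein receptor, by 0.29 (adjusted p = 0.00651). Of 20 glycolytic HIF targets tested, 3 rose, led by HK2 (0.74), and 5 fell, led by PGAM1 (-1.27) and LDHA (-1.09), which is 15% and 25% against 13.0% and 13.7% of all genes tested, with a median of -0.027. LDHA and LOX, both textbook HIF targets, had log2 fold changes of -1.09 and 2.17 in the same libraries.

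**Figure D5:**
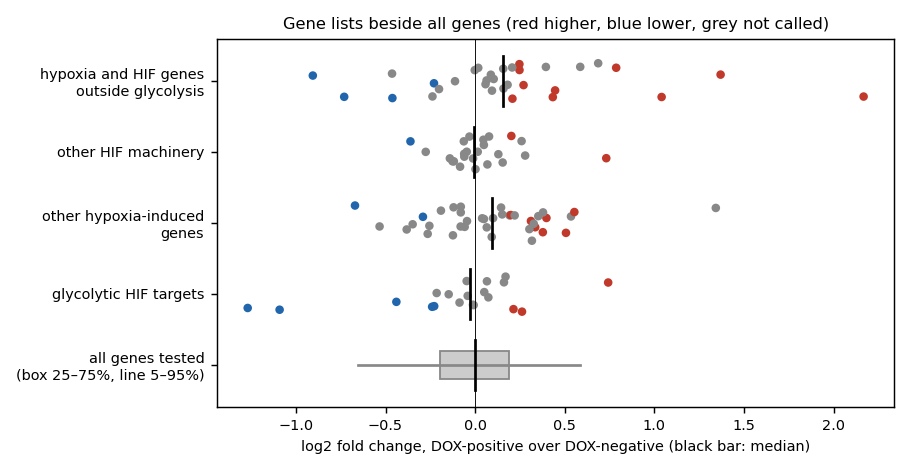
Log2 fold change (x axis) of each gene tested in 4 lists (y axis), with red points called higher, blue points called lower and grey points not called at an adjusted p under 0.05; the black bar is the list's median, and the box and line at the bottom give the 25 to 75% and 5 to 95% ranges of all genes tested. The median of hypoxia and HIF genes outside glycolysis stands at 0.16 and the other lists lie between -0.027 and 0.096.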

How the data were processed

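Stranded RNA-Seq of poly(A) RNA gave 6 libraries, which were grouped and numbered by their titles. The table columns name the line DU145TR where the titles have DU145DR, so each column was assigned through its DOX label and replicate, a pair that only 1 sample has. The authors deposited whole-number read counts for 28008 genes, and TPM values, which are scaled to gene length and library total. The submitters' processing notes name STAR, GRCh38, hg38 and DESeq2; the counting step, its use of strand and the annotation are not given in the sources used here. Genes sharing exon bases with neighbours were therefore looked up in GENCODE 29.

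Count analysis used edgeR 4.0.16 in R 4.3.3 (filterByExpr, 14292 genes kept; TMM factors between 0.986 and 1.03; glmQLFit and glmQLFTest, two-sided, with group as the sole factor). A gene was called at a Benjamini-Hochberg adjusted p under 0.05 over all genes tested. SEs are the absolute log2 fold change over the square root of F. CPM uses TMM-scaled totals, and a floor of 3 counts reflects counting error alone. Fits were run on simulated counts, with a limit on the error of the estimates set for edgeR and DESeq2 only. The simulated TPM had no gene lengths, so the limma fits on deposited TPM were not checked this way. No pair of libraries in a group agreed within sampling noise (chi-square over degrees of freedom from 3.76 to 20.2), and each library was taken as 1 replicate.

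Some items are not reported here. The member genes and lists were chosen with earlier results of these data known. Counts per library are given for HIF subunits, hydroxylases, VHL, genes that failed the filter, and other genes called with a log2 change of at least 0.4 in either direction; other lists are named by up to 3 largest rises and falls among calls. Values given per library for other genes were chosen after they were seen.

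Alternatives were a replicate block, DESeq2 1.42.0, scaling by RLE factors or by total counts alone, fits with no filter or with a minimum of 10 counts in each library, each library left out in turn, and limma 3.58.1 on log2(TPM + 1), log2(TPM + 0.1) and log2(TPM + 1) rescaled without RN7SL1, RN7SL2, RN7SL3, RN7SK and RPPH1. Fold changes on a log2(TPM + pseudocount) scale understate the change of low genes. Promoter windows came from a RefSeq table of GRCh38.p14, and figures were drawn with matplotlib 3.10.9.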

Additional observations from a re-analysis of the deposited data

How the results depend on the processing

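Over the 32 hypoxia and HIF genes and 15 alternatives, 394 values kept their direction and side of the threshold, 38 lost a call in the same direction, 7 gained one and 40 changed sign, 8 of which also lost a call. All genes called numbered 717 on log2(TPM + 1), 846 on log2(TPM + 0.1), of which 4.74% and 6.03% were higher in place of 48.8%, and between 2784 and 3645 with 1 library left out. In the same order of TPM settings, hypoxia and HIF genes higher numbered 2 and 2 (5 after rescaling without the short RNAs; between 8 and 10 with 1 library left out) and lower 2 and 2 (between 3 and 5). Other HIF machinery gave 1 and 0, the latter with 2 at an unadjusted p under 0.05, other hypoxia-induced genes 1 and 1 (5 after rescaling), and glycolytic targets 3 and 2 (4 after rescaling; between 5 and 8 with 1 library left out, 5 of them without DOX-positive replicate 3). The median of the hypoxia and HIF genes was 0.12 with total counts, -0.22 and -0.23 in TPM, 0.14 after rescaling and between 0.12 and 0.16 with 1 library left out.

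On log2(TPM + 1) and log2(TPM + 0.1), signs turned for EPAS1 (-0.14, -0.15), ARNT (-0.32, -0.33), EGLN1 (-0.23, -0.24), HIF1AN (-0.12, -0.12), VHL (-0.32, -0.33), BNIP3L (-0.15, -0.15), FAM162A (-0.22, -0.22), P4HA1 (-0.20, -0.21), PLOD2 (-0.31, -0.31), LOXL2 (-0.28, -0.29), KDM4B (-0.17, -0.19), RORA (-0.25, -0.35), ZNF395 (-0.27, -0.30), WSB1 (-0.18, -0.18) and, with the first, ANKRD37 (-0.027). The median of all genes moved by -0.37 and -0.39 there, and subtracting it restored each sign. HIF1A turned to 0.0017 with DESeq2 and 0.0017 with RLE factors, and ranged from -0.044 to 0.031 with 1 library left out. RORA turned to -0.018 with total counts and -0.0022 after rescaling, and ranged from -0.075 to 0.15.

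Replicate numbers were shared by the groups but did not pair the samples (correlations of deviations -0.070, -0.14 and -0.037). With the replicate block 3158 genes were called, 3136 of them shared with the fit reported, and hypoxia and HIF genes numbered 8 higher and 3 lower. Counts were low for CA9, STC1, EGLN2, ANKRD37, NDUFA4L2 and ANGPTL4, and the part of depth and of shared exons in this was not tested.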
